A study of Mus musculus with 5 samples.

Results

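C1q-positive macrophages are described here in single-cell RNA-seq of mouse mammary gland, freed of lymph nodes, and mammary tumor. They were selected on their own measured counts, as barcodes with at least 3 UMIs (unique molecular identifiers) and at least 10 counts per 10000 UMIs of C1qa, C1qb and C1qc together, with at least 1 UMI of Csf1r, Adgre1, Ms4a7 or Mrc1, and with no UMI of Epcam, Pecam1, Cd3e or Cd3g. The rule found 896 cells among 33551 kept barcodes, and 34526 barcodes were deposited. Vehicle-treated BPK gland gave 153 members, PK gland with 4NQO gave 63, the pair of BPK 4NQO libraries gave 123 and 463, and BPK tumor gave 94. BPK glands were Brca1 wt/flox, Trp53 flox/flox and Krt14cre, and PK glands were Brca1 wt/wt, Trp53 flox/flox and Krt14cre, so every group carried the floxed Trp53 alleles and a Cre driven by the promoter of the epithelial keratin gene Krt14. Gland libraries were made after 12 intraductal injections of the mutagen 4-nitroquinoline 1-oxide (4NQO) or of its vehicle, PBS/PEG, and the tumor had formed after 24 injections of 4NQO. Only BPK 4NQO had a second library, and nothing in the labels ties its 2 libraries to separate animals, so the spread between them may be technical. The labels give neither an age nor the number of animals per library.

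C1q is the recognition molecule of the classical complement pathway, and its 3 chains are made mainly by tissue macrophages. The mammary gland holds several macrophage states. Stromal and perivascular cells carry the scavenger and lectin receptors Lyve1, Folr2 and Cd163, cells embedded in the ducts carry the fractalkine receptor Cx3cr1, and cells that take up debris and lipid carry Trem2, Gpnmb and Spp1. Cells recently derived from monocytes carry Ccr2 and Ly6c2.

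The members' values of the genes that chose them are given as a description only. C1qa was at 3886, 5015, 5351, 3159 and 6435 CPM (the counts of a gene summed over the member cells of a library, per 1000000 of their UMIs) in BPK vehicle, PK 4NQO, BPK 4NQO replicates 1 and 2 and the tumor, the order used for every run of 5 values below. Csf1r, the receptor of the macrophage growth factor CSF1, was at 499, 401, 286, 555 and 373 CPM. Ms4a7, a membrane protein of macrophages, was at 884, 1538, 1714, 1146 and 1943 CPM. The 5 macrophage markers together came to between 7842 and 15414 CPM in the members and to between 1.82 and 34.6 CPM in kept barcodes with no C1q UMI. Cd68, a macrophage lysosomal glycoprotein that the rule did not use, was at 819.5, 881, 1063, 624 and 570.1 CPM. All of these macrophage genes were thus present in every library. The C1q threshold cut through few cells: 25 barcodes that met every other condition lay between 5 and 10 counts per 10000, 23 of them in BPK 4NQO replicate 2, and 69 members lay between 10 and 20.

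Defining markers of other cell types were low but not absent in the members. NK cell markers were detected in BPK 4NQO replicate 2 alone, at 7.06 CPM over 3 of 7 genes, and all 4 adipocyte markers were at 0 in every library. S100a9, Retnlg, Cxcr2 and Ly6g, which define neutrophils, were at 0 in the 4 gland libraries, and S100a9 was detected in the tumor. All 7 neutrophil markers, which include S100a8, Csf3r and Mmp8, summed to 14.7, 48.1, 59.2, 41.8 and 51.4 CPM in the members and to 4.68, 1.68, 2.74, 12.5 and 217 CPM in barcodes with no C1q UMI. Dendritic cell markers summed to 79.3 to 244 CPM over the 5 libraries, with Clec9a at 0 in each. T cell markers, of which the rule itself set Cd3e and Cd3g to 0, summed to 38.2, 40.1, 77.2, 67.4 and 14.5 CPM, with Cd3d at 0 throughout. In barcodes with no C1q UMI they summed to 4.26, 12.7, 37.9, 141 and 7.47 CPM, above the members in BPK 4NQO replicate 2 only. Markers of basal epithelium and keratinocytes summed to 118 to 449 CPM in the glands and to 2346 CPM in the tumor, where barcodes with no C1q UMI held 25202 CPM of them. Fibroblast markers summed to 67.6, 8.01, 206, 369 and 511 CPM. At least 1 UMI of an epithelial, stromal, endothelial or lymphoid marker was present in 68.6%, 46.0%, 74.8%, 77.8% and 100% of the members, the last value being the tumor's.

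**Figure D1:**
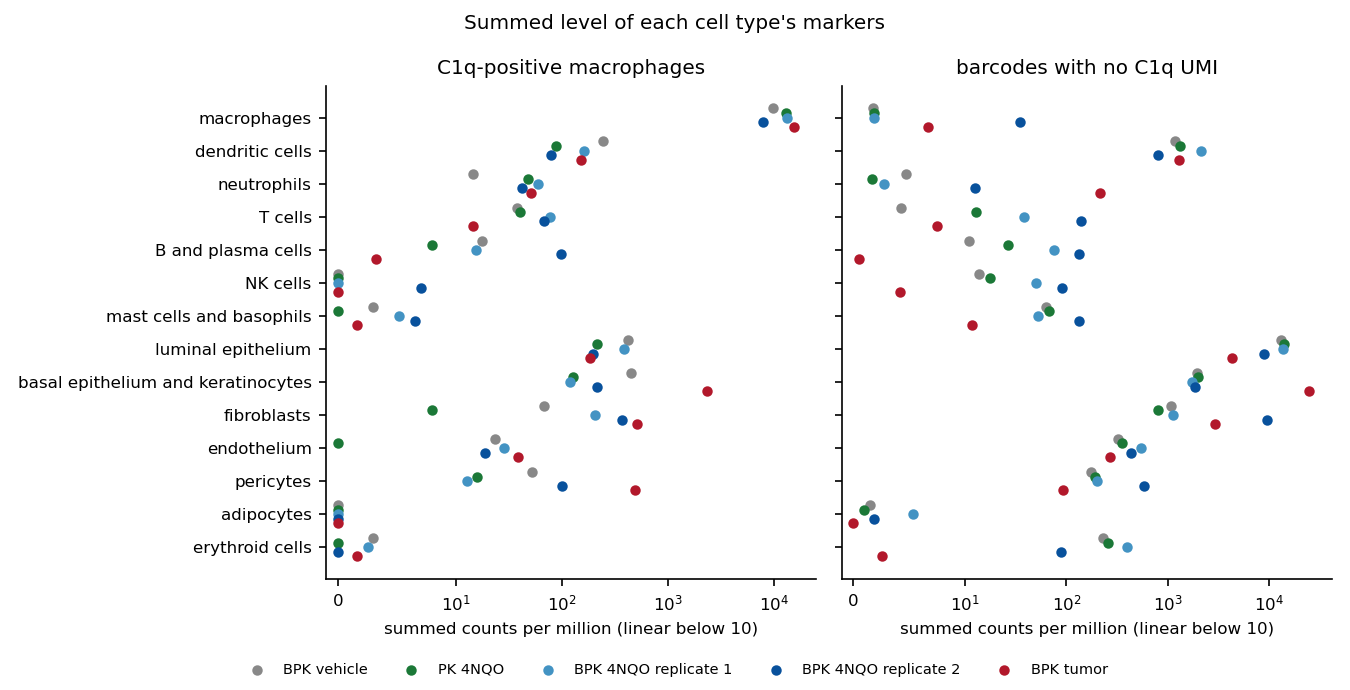
Summed CPM of each list of cell type markers (x axis, logarithmic above 10 and linear below) in C1q-positive macrophages (left) and in barcodes with no C1q UMI (right), 1 point per library. Macrophage markers, which the selection used, lie between 7842 and 15414 on the left, and basal and keratinocyte markers reach 2346 in the tumor's macrophages.

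Depth and 1 library limit what follows. Library totals ran from 27383717 to 64169843 UMIs, and the members held 340431, 124831, 388497, 1840395 and 622698 UMIs, at medians of 1608, 1584, 2314, 3513 and 5849.5 per cell. BPK 4NQO replicate 2 stood apart from the other libraries. It shared at most 2 barcodes with any of them, against 26 to 107 for the other pairs, and Gm42418, a gene model overlapping ribosomal RNA, took 728, 529, 548, 98746 and 594 CPM of the members' UMIs. No member barcode was shared between libraries. The low overlap puts in doubt that replicate 2 was made with the same barcode list as the other libraries, and its reagents could not be told from the files. Differences between the BPK 4NQO replicates may therefore hold a technical part, which was not tested.

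C1q-positive macrophages made up 1.63% of the kept barcodes in BPK vehicle (95% exact Clopper-Pearson interval 1.38 to 1.91) and 0.847% in PK 4NQO (0.651 to 1.08). The BPK 4NQO replicates stood at 1.65% and 6.65% (1.37 to 1.96 and 6.08 to 7.26), and the tumor at 4.10% (3.33 to 5.00). The mean of BPK 4NQO was 4.15% ± 3.54 (SD, n = 2), and its replicates lay on either side of the tumor. Epcam, Pecam1, Cd3e and Cd3g excluded 37 of 190, 12 of 75, 24 of 147, 83 of 546 and 58 of 152 barcodes that met the other conditions. The rule thus removed the largest part in the tumor, and the effect of this on the order of the shares was not tested. Replicate 1 was at the level of the vehicle gland, and PK 4NQO was lowest, with an interval below every other. Among barcodes with a Ptprc UMI, a marker of leukocytes, members made up 29.7%, 25%, 16.8%, 21.9% and 31.7%. These shares count only members with a Ptprc UMI, 47 of 153, 27 of 63, 44 of 123, 371 of 463 and 65 of 94. The order thus changed with the denominator and with the detection of Ptprc in the members, which cannot be told apart. No test was made of the shares, since every other group had 1 library. The intervals cover counting error only, and dissociation and droplet recovery act on every share.

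Gates on marker genes were then set within the members. Each cell of at least 1000 UMIs was thinned to 1000, which kept 117, 49, 105, 436 and 89 cells, and a cell passed a gate with at least 1 UMI of its genes. The resident gate (Lyve1, Folr2, Cd163 or Timd4, scavenger and phosphatidylserine receptors of long-lived tissue macrophages) held 55 of 117 cells in BPK vehicle (47.0%, interval 37.7 to 56.5), 19 of 105 and 110 of 436 cells in BPK 4NQO (18.1% and 25.2%, intervals 11.3 to 26.8 and 21.2 to 29.6) and 16 of 89 cells in the tumor (18.0%, 10.6 to 27.5). It held 0 of 49 cells in PK 4NQO, which allows up to 7.25% of cells with such a UMI at this depth (upper limit of the exact interval). With all of their UMIs 7 of 63 PK 4NQO cells passed (11.1%, interval 4.59 to 21.6), so the 0 held at 1000 UMIs only. Barcodes with no C1q UMI passed it in 0.584% to 1.77% of cases at the same 1000 UMIs. The vehicle interval lay above those of the 4 libraries exposed to 4NQO. These intervals cover counting error among the cells of each library only, and no test was made of the gate shares. Without thinning the percentages were 57.5, 11.1, 34.1, 43.6 and 46.8, with the vehicle gland again highest but its interval of 49.3 to 65.5 overlapping that of the tumor, 36.4 to 57.4. Before thinning, cells inside the gate had fewer UMIs than the others, at medians of 1571, 1243, 3272 and 5077 against 2639.5, 3217.5, 3711.5 and 7160 UMIs in the libraries with such cells, and the part of cell depth in the shares beyond thinning was not tested.

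The lipid-associated gate (Trem2, Gpnmb or Spp1, a lipid receptor and products of debris-laden macrophages) held 37.6%, 40.8%, 52.4%, 25.9% and 51.7% of the thinned members. Replicate 2 was lowest and replicate 1 highest at this depth. With all UMIs of each cell the percentages were 45.8, 58.7, 56.1, 46.4 and 81.9, with the tumor highest and the replicates inside the range of the other libraries, so the order of the libraries changed with thinning. Between 9.82% and 20.6% of barcodes with no C1q UMI passed this gate, and Spp1, which mammary epithelium also makes, was at 313 to 1111 CPM in them. The Cx3cr1 gate held 8.55%, 14.3%, 4.76%, 2.52% and 8.99% of the members against 0.0299% to 0.717% of barcodes with no C1q UMI. With all UMIs it held 7.84%, 22.2%, 17.1%, 8.86% and 29.8%, against 0.206% to 3.25%, and the tumor took the place of PK 4NQO as the highest. The Ccr2 gate (Ccr2 or Ly6c2) held 15.8% in BPK 4NQO replicate 2 and 3.42% to 6.12% in the other libraries. In barcodes with no C1q UMI it held 7.16% in replicate 2 and 0.198% to 1.06% elsewhere. With all UMIs it held 29.8% of the members of replicate 2 and 7.19% to 14.9% in the other libraries. The cycling gate (Mki67, Top2a, Birc5 or Ube2c) held 2.56%, 4.08%, 6.67%, 13.3% and 10.1% of the members. Its level in barcodes with no C1q UMI, which include cycling cells of other types, was 8.60%, 4.13%, 3.55%, 9.04% and 16.8%, above the members in BPK vehicle, PK 4NQO and the tumor and below them in both BPK 4NQO replicates. With all UMIs it held 5.23%, 4.76%, 12.2%, 30.5% and 24.5% of the members, and BPK 4NQO replicate 2 was highest either way.

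**Figure D2:**
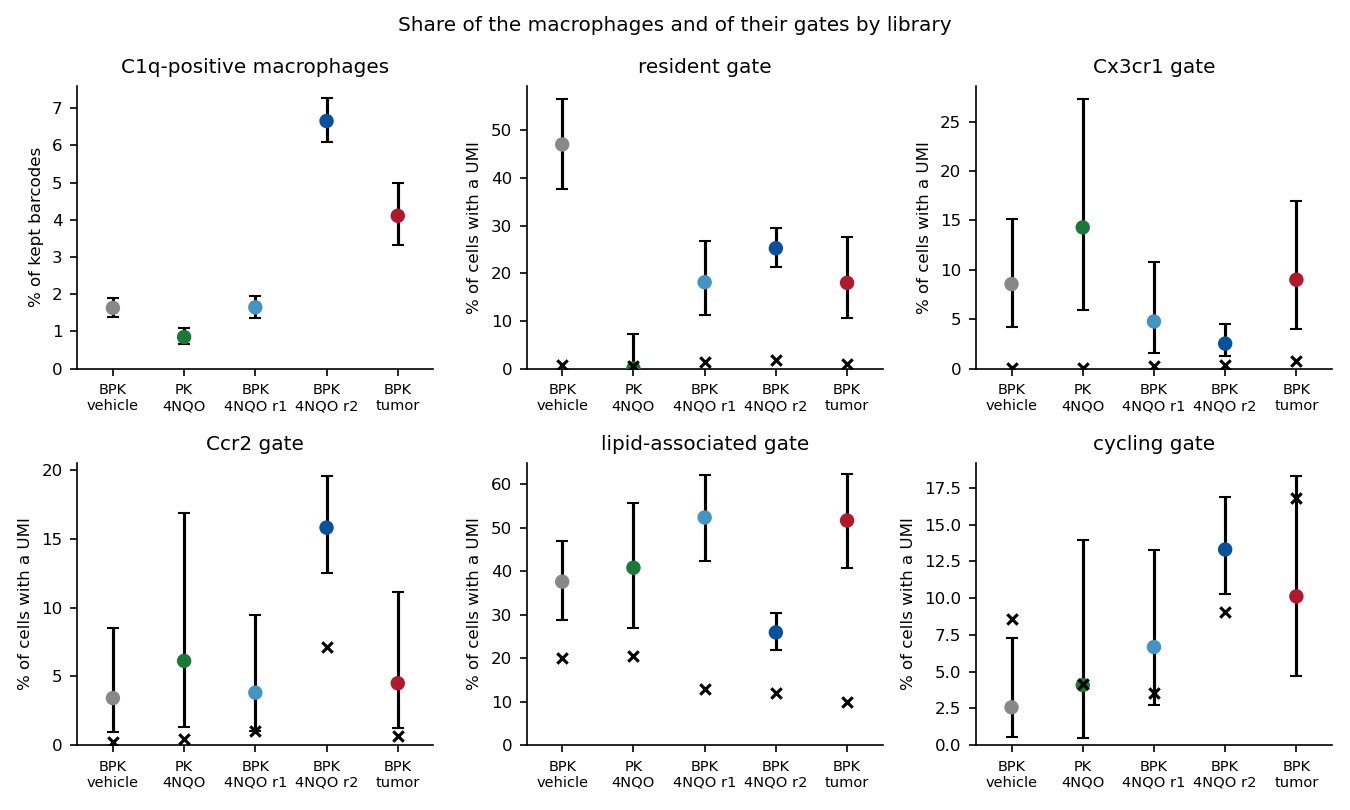
Percent of kept barcodes that were C1q-positive macrophages (first panel) and percent of those macrophages, thinned to 1000 UMIs, with at least 1 UMI of each gate's genes (other panels), 1 point per library (r1 and r2 are the replicates) with exact 95% intervals as bars. Crosses show barcodes with no C1q UMI. The resident gate holds 47.0% of cells in BPK vehicle and 0 in PK 4NQO.

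Cells inside the resident gate were compared with the other C1q-positive macrophages of the same library. They had more mRNA of the resistin-like cytokine Retnla and of the CD209-type lectins Cd209b, Cd209d, Cd209f and Cd209g, and less of Il1a, Il1b and 5 of the 6 tested MHC class II genes. The gate genes themselves were not tested. BPK vehicle and BPK 4NQO replicate 2 had at least 20 cells on each side and formed the test, in which 60 of 1355 genes (4.43%) were higher and 55 (4.06%) lower at an adjusted p under 0.05. With at least 15 cells on each side, a minimum added after the data were seen, replicate 1 and the tumor entered too, and 70 of 892 genes (7.85%) were higher and 54 (6.05%) lower. Of the 115 genes called first, 82 were tested there and 82 kept their sign. In that wider test the calls fell to 39 higher and 27 lower without BPK 4NQO replicate 1 and to 39 and 35 without replicate 2. With C1q at no less than 20 counts per 10000 no gene passed, in edgeR's test, although 161 had an unadjusted p under 0.05 and 111 of the 111 called genes tested kept their sign. All of these runs reuse cells of the first test, so kept signs are no independent support.

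Retnla, an IL-4-inducible secreted protein of alternatively activated macrophages, was at 30491, 19947, 9164 and 1062 CPM inside the gate in BPK vehicle, BPK 4NQO replicates 1 and 2 and the tumor, and at 4064, 1093, 2147 and 13.7 CPM outside it. Each library had more inside the gate, with a log2 difference 2.50 ± 0.27 SE, adjusted p = 8.28e-12. Cd209f was at 2254, 1421, 509 and 438 CPM inside and 258, 58.1, 24.5 and 13.7 CPM outside in the same order (log2 difference 3.66 ± 0.48 SE, adjusted p = 4.58e-09). Its relatives Cd209b, Cd209g and Cd209d, C-type lectins encoded side by side with it, differed by 4.49, 4.27 and 3.10. How reads that fit several of these genes were assigned is not given in the sources used here. Fcna, a ficolin of the lectin complement pathway, was at 1364, 1105, 464 and 375 CPM inside and 64.5, 0, 33.7 and 54.8 outside. Complement component C4b (3.25), the transglutaminase F13a1 (2.57), the eosinophil chemoattractant Ccl24 (3.02), the endothelin receptor Ednrb (2.98), the semaphorin Sema4a (2.83) and the galactose-type lectin Clec10a (2.57) were also higher.

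Genes lower inside the gate were led by Ccl22, a chemokine for regulatory T cells, at 0, 0, 0 and 0 CPM inside the gate and 323, 46.5, 184 and 0 CPM outside it, so it was not detected on either side in the tumor. Il1b, the secreted inflammasome product, was at 18.2, 0, 63.6 and 1500 CPM inside and 1145, 593, 945 and 5123 outside, with a log2 difference -4.44 ± 0.58 SE, adjusted p = 4.97e-09. The tumor was the library with the most Il1b on either side of the gate. Il1a differed by -3.99, the scavenger and chemokine Cxcl16 by -3.08, the protein C receptor Procr by -4.62 and the membrane protease Mmp14 by -3.0. Bcl2a1b, of the BCL2 family, the calcineurin regulator Rcan1, the cystine transporter Slc7a11, Arl5c and the surface glycoprotein Cd52 were lower too, with log2 differences of -3.75, -3.63, -3.50, -3.43 and -3.0. The 49 cells of PK 4NQO, none of them inside the gate, had 1367 CPM of Il1b, 1122 of Retnla and 39510 of Cd74, so their Retnla was near that of replicate 1 outside the gate and their Cd74 near that of BPK vehicle outside it. After thinning, these values rest on few UMIs per library, and a level of 0 is a count of 0.

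**Figure D3:**
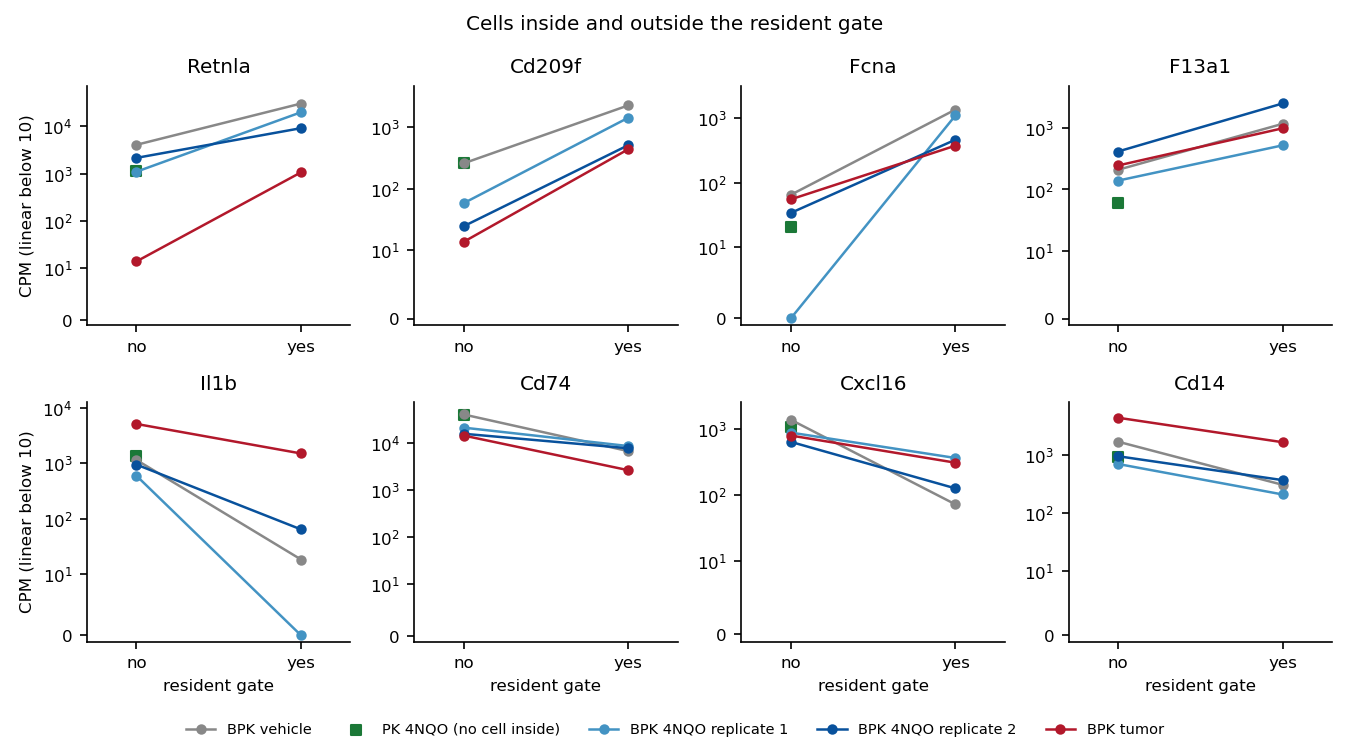
CPM (y axis, logarithmic above 10 and linear below) of 8 genes in C1q-positive macrophages outside (no) and inside (yes) the resident gate, after thinning to 1000 UMIs. Lines join the sides of 1 library and the square is PK 4NQO, which had no cell inside. The upper 4 genes are higher inside in each of the 4 libraries with such cells, and the lower 4 are lower.

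By function, 13 of the 15 tested genes of the resident and perivascular list were higher and 0 lower, among them Igf1, Gas6, Maf and Sepp1, the selenium carrier. This list was drawn up around the gate genes. Over all genes of this test 4.43% were higher and 4.06% lower, the shares to set beside each list below. All 5 called genes of the 6 tested MHC class II genes were lower. Cd74, the class II invariant chain, was at 6854, 8789.5, 7891 and 2688 CPM inside and 41435, 21709, 16067 and 14726 outside, and H2-Aa and H2-Ab1 differed by -1.84 and -1.73. Of 14 inflammatory and NF-kB genes 9 were lower, including Cxcl1, Cxcl2, Tnf and the endotoxin co-receptor Cd14 (-1.86). The antioxidant genes Slc7a11, Srxn1, Txnrd1 and Prdx1 were lower, 4 of 6 tested. Chemokines changed in both directions: Ccl8 (2.07) and Ccl6 (1.18) were higher, and Ccl3 (-1.97), Ccl4 (-1.13), Ccl5 (-2.63) and Cxcl16 lower, which makes 2 higher and 4 lower of 13 tested. With at least 15 cells on each side 5 were higher and 3 lower of 12 (7.85% and 6.05% of all genes), so the balance of this list turned between the tests. Among 8 MHC class I genes 0 passed in edgeR's test, and their median log2 difference was -0.24 beside 0.04 over all genes. Among 18 heat shock and immediate early genes 5 were higher, led by Jun (1.94) and Hspa1a (1.52), and Btg1 was lower. How reads shared by the near-identical Hspa1a and Hspa1b were assigned is likewise not given. Such genes are also known to rise during tissue dissociation, and the part of that in the difference was not tested.

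Promoters of a gene higher and a gene lower inside the gate are shown because a known motif of their pathways lies in each. They are the 250 bases before the RefSeq start on GRCm38.p6, written 5′ to 3′ on the gene's strand (chr16:48842359-48842608, strand +, and chr5:90903649-90903898, strand +). Capitals mark TTC and GAA with 4 bases between them, the palindrome read by STAT factors, in Retnla, and GGGA and TTCC with 2 bases between them, a kappa B site, in Cxcl2.
Retnla: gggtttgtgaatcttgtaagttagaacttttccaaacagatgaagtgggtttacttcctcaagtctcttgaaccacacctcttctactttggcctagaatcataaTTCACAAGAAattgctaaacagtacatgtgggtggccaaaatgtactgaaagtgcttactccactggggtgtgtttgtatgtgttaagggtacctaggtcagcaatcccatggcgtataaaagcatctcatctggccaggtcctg
Cxcl2: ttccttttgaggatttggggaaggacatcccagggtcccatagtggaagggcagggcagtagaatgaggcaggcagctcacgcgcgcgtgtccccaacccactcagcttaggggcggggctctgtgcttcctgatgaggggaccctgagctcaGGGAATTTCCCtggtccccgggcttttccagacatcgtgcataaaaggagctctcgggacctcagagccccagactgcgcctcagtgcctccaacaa
Both strands were searched, and the capitals in Cxcl2 cover 2 overlapping matches on opposite strands. The STAT palindrome was found in 5.85% of 32851 promoters of the same length, in 2 of the 49 matched genes that were higher, Retnla and Pros1, and in 2 of the 40 matched genes that were lower. The kappa B site was found in 1.21% of promoters, in 2 of the genes that were lower, Cxcl1 and Cxcl2, and in 1 that was higher. A match is a description of the sequence.

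Cells inside the lipid-associated gate had more mRNA of the lysosomal proteases Ctsd and Ctsl and of the lipid-handling genes Fabp5 and Lpl than the other members, and less of Retnla, Rsad2 and the chemokines Ccl2, Ccl3 and Cxcl10. All 5 libraries had at least 20 cells on each side, and 14 of 607 genes (2.31%) were higher and 13 (2.14%) lower inside the gate. The number of calls depended on the BPK 4NQO libraries: without replicate 1 it was 3 higher and 1 lower, and without replicate 2 it was 0 and 0, with 80 genes at an unadjusted p under 0.05 and 25 of the 25 called genes tested keeping their sign. The remaining libraries are those of the full test, so kept signs are no independent support. With all UMIs of each cell 55 genes were higher and 39 lower over 4 libraries. Without BPK vehicle 5 and 10 genes passed, without PK 4NQO 18 and 25, and without the tumor 23 and 21. Before thinning, cells inside this gate were deeper, most of all in BPK 4NQO replicate 1 at a median of 4737 against 1755.5 UMIs, and the part of cell depth was not tested.

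Ctsd, the lysosomal protease cathepsin D, was at 2523, 5650, 7236, 3539.8 and 1717 CPM inside the gate in the 5 libraries and at 795, 1241, 1020, 1306 and 1814 CPM outside it (log2 difference 1.55 ± 0.31 SE, adjusted p = 0.0179). The 4 gland libraries had more inside the gate, and in the tumor the sides were level. Fabp5, a fatty acid binding protein, was at 841, 3000, 2582, 1584 and 891 inside and 68.5, 655, 620, 303 and 953 outside, again with the tumor alone not higher inside (log2 difference 1.84 ± 0.35 SE, adjusted p = 0.0155). The lipase Lpl (1.49), the tetraspanin Cd9 (1.77), galectin 3 (Lgals3, 1.36), the actin-capping protein Capg (1.51), the scavenger receptor Cd68 (0.91), lysozyme (Lyz2, 1.15) and the cytokine Mif (0.94) were higher inside the gate in each of the 5 libraries. Cathepsin L (Ctsl, 2.04), the acyl-CoA binding protein Dbi (1.32) and Creg1 (0.91), a lysosomal glycoprotein, were higher too. Of 10 tested genes of the lipid-associated list 4 were higher, and of 18 lysosomal genes 5 were higher and 0 lower. Over all genes of this test 2.31% were higher and 2.14% lower. Apoe, the apolipoprotein of the same list, was at 23909, 57900, 57400, 18310 and 35826 CPM inside and 24301, 37276, 27240, 11659 and 30442 outside and did not pass (log2 difference 0.46 ± 0.18 SE, adjusted p = 0.179).

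Retnla was lower inside this gate, at 14727, 300, 1164, 1549 and 0 CPM against 17548, 1689.7, 8180, 4746 and 419 CPM outside (log2 difference -1.84 ± 0.39 SE, adjusted p = 0.0205). Rsad2, an antiviral enzyme induced by interferon, was at 45.5, 0, 109, 1974 and 413 CPM inside and 616, 345, 720, 4149 and 442 outside (log2 difference -1.62 ± 0.38 SE, adjusted p = 0.0283), with replicate 2 highest on both sides. The interferon-induced chemokine Cxcl10 (-1.23), the monocyte attractant Ccl2 (-1.09), Ccl3 (-0.99), Ccl4 (-0.87), the platelet factor Pf4 (-1.11) and F13a1 (-1.33) were lower as well. The stress regulators Atf3 (-0.80), Ppp1r15a (-1.09), Hsph1 (-1.35) and Klf6 (-0.78) completed the named genes. Among 15 inflammatory genes 0 passed in edgeR's test, and Il1b was at 477, 350, 145, 195 and 6022 CPM inside and 699, 2069, 860, 907 and 2814 outside, higher inside in the tumor and lower in the 4 glands.

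**Figure D4:**
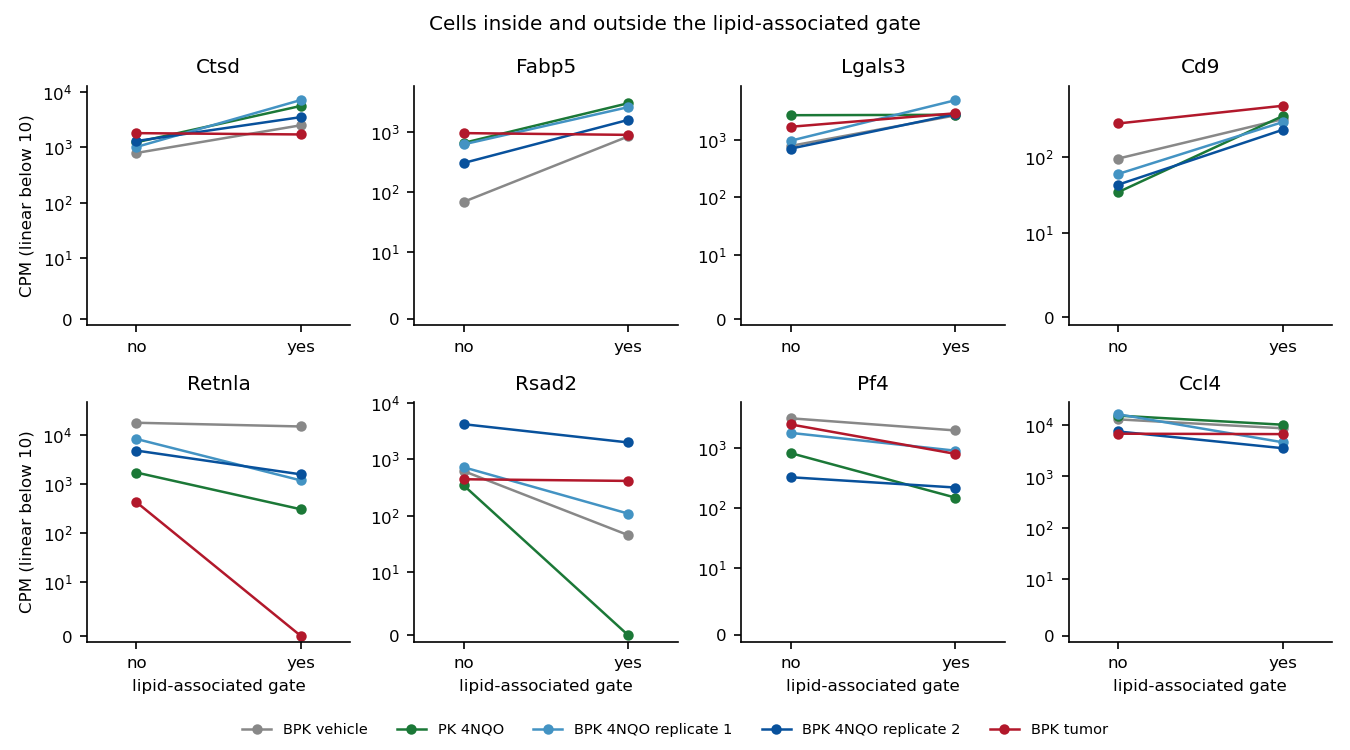
CPM (y axis, logarithmic above 10 and linear below) of 8 genes in C1q-positive macrophages outside (no) and inside (yes) the lipid-associated gate, after thinning to 1000 UMIs, with lines joining the sides of 1 library. Ctsd and Fabp5 are higher inside in the 4 glands and not in the tumor, and Retnla and Pf4 are lower inside in each of the 5 libraries.

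Promoters of Ctsd and Rsad2, called in opposite directions by this gate, are shown in the same form (chr7:142387828-142388077, strand -, and chr12:26456453-26456702, strand -). Capitals mark TCACGTGA, the E-box of the CLEAR element of lysosomal genes, in Ctsd, and in Rsad2 the reverse complement of GAAA and GAAA with 2 bases between them, the core of the interferon-stimulated response element.
Ctsd: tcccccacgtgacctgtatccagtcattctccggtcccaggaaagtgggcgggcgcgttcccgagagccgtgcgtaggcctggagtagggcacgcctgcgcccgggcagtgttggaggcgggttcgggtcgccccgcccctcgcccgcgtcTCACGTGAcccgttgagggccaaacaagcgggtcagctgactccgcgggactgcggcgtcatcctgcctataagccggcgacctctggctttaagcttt
Rsad2: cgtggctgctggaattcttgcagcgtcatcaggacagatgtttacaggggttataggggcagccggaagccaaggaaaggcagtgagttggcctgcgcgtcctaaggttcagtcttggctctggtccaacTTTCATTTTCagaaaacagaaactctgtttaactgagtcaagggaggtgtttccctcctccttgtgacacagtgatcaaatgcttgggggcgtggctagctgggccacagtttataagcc
TCACGTGA was found in 0.785% of promoters and in 1 of the 12 matched genes that were higher. The interferon element was found in 2.98% of promoters and in 3 of the 10 matched genes that were lower, Cxcl10, Ppp1r15a and Rsad2. It was also found in 1 of the 12 higher genes, Ctss.

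Cx3cr1-positive members were too few at 1000 UMIs for a test, with 5 to 11 cells per library. With all UMIs of each cell, BPK 4NQO replicates 1 and 2 and the tumor had 21, 41 and 28 positive cells, and 3 of 3259 genes (0.0921%) were higher and 12 (0.368%) lower. The calls rested on the tumor and replicate 2: without the tumor 0 passed in edgeR's test (220 at an unadjusted p under 0.05), without replicate 2 there were 0 higher and 2 lower, and without replicate 1 there were 23 and 43. The called genes that were tested, 13 or 15 of the 15, kept their sign in each of these fits, which were added after the data were seen. These fits reuse libraries of the first, so kept signs are no independent support. Gatm, an enzyme of creatine synthesis, was higher in positive cells, at 707, 542, 915, 492 and 673 CPM in the 5 libraries against 331, 513, 324, 207 and 317 in the others (log2 difference 1.26 ± 0.18 SE, adjusted p = 0.026). The tetraspanin Cd81 was higher too, with a log2 difference of 1.22. Among the lower genes Cd209f was at 78.5, 0, 0, 0 and 0 CPM in positive and 969, 175, 196, 141 and 129 in the other cells. The chemokine Ccl6 was at 157, 90.3, 132, 459 and 119.5 against 1426, 1954, 1444, 1558 and 2983, and Fcna, Ednrb, Ccl9, S100a4 and F13a1 were lower too. Positive cells of replicate 1 and the tumor were deeper than the other members, at medians of 4369 and 8827 UMIs against 1966 and 4649.5, and the part of depth was not tested.

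Cycling members likewise gave a test only with all UMIs, in BPK 4NQO replicate 2 and the tumor with 141 and 23 positive cells. In it 8 of 5811 genes (0.138%) were higher and 9 (0.155%) lower. Stmn1, a tubulin regulator of dividing cells, was higher (log2 difference 2.15 ± 0.32 SE, adjusted p = 0.0215). The chitinase-like protein Chil3 (3.08), the myosin kinase Mylk (1.78) and Igfbp7 (1.3), an insulin-like growth factor binding protein, were higher too. Chil3 was at 0, 0, 11.7, 203 and 4.36 CPM in positive cells of the 5 libraries and 0, 43.5, 0, 20.4 and 5.09 in the others, so of the libraries tested replicate 2 alone was higher. Cd209d, Cd209f, Cd209g, Ccl24 and Fcna were lower, with log2 differences of -3.71, -2.49, -2.58, -2.65 and -2.27. Ccl24 was at 0, 0, 0, 18.3 and 0 CPM in positive cells of the 5 libraries and 704, 183, 142, 104 and 20.3 in the others. The EGF receptor ligand Areg (-2.04) and F13a1 (-1.26) were lower too. Positive cells were deeper, at medians of 4601 and 8742 UMIs against 3133 and 4823, and the part of depth was not tested. Fewer than 2 libraries had 20 Ccr2-positive cells, so that gate was not tested.

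Exposure to 4NQO was compared with vehicle in BPK glands on counts summed over the members. Across 5341 genes 0 were higher (0%) and 3 were lower (0.0562%) in edgeR's test, where 75 had an unadjusted p under 0.05, and DESeq2 called 0 higher and 2 lower. The 3 genes encode proteins of skeletal muscle. Acta1, skeletal actin, was at 229 in BPK vehicle, 8.01 in PK 4NQO, 0 and 0.543 in the BPK 4NQO replicates and 1.61 in the tumor, in CPM (log2 difference -8.79 ± 1.49 SE, adjusted p = 2.26e-05). Tnnc2, a troponin, was at 106, 0, 0, 0 and 1.61 CPM and Mylpf, a myosin light chain, at 99.9, 0, 0, 0.543 and 1.61. A single cell of BPK vehicle held 84.6% of that library's Acta1 UMIs in the members, 86.1% of Tnnc2 and 88.2% of Mylpf. With predicted doublets removed 0 of 5126 genes passed and 71 had an unadjusted p under 0.05. Acta1, Tnnc2 and Mylpf were not among the genes tested there, so that run gave them no test. In a simulation over 5502 genes, changes of 4, 3 and 2 on the log2 scale were recovered in 90.9%, 65.2% and 20% of genes. Its spread between libraries was fixed below the estimate for the real ones (common biological coefficient of variation 0.557). Recovery in the real data would therefore be lower.

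Cd207, the lectin langerin, missed the threshold in this test. It was at 614 in BPK vehicle, 16 in PK 4NQO, 5.15 and 25 in the BPK 4NQO replicates and 49.8 in the tumor, in CPM (log2 difference -5.45 ± 1.39 SE, adjusted p = 0.116), so the vehicle gland lay above the 4 libraries exposed to 4NQO. DESeq2 called it (adjusted p = 0.00706), and so did edgeR when PK and BPK 4NQO were joined as 1 group of 3 libraries, a grouping added after the data were seen (log2 difference -5.38, adjusted p = 4.43e-05). Of the vehicle gland's Cd207 UMIs 16.3% came from 1 cell, and of the tumor's 93.5%. Langerin is also known from Langerhans cells and some dendritic cells, whose markers summed to 244, 88.1, 162, 79.3 and 151 CPM in the members, and their part in the result was not tested.

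Resident-type genes mostly had lower values under 4NQO, without any passing the test. Of 19 tested members of that list 0 passed in edgeR's test and 3 had an unadjusted p under 0.05, both BPK 4NQO libraries lay below vehicle for 13 (68.4%) where 24.1% of all tested genes did, and the median log2 difference was -1.18 beside 0.10. Retnla was at 12502 in BPK vehicle, 1282 in PK 4NQO, 2299 and 4080.1 in the BPK 4NQO replicates and 133 in the tumor, in CPM (log2 difference -2.16, unadjusted p = 0.171, adjusted p = 1). Vehicle was highest and the tumor lowest. Cd209f was at 869, 128, 147, 129 and 77.1 CPM, Cd209d at 555, 40.1, 87.5, 89.1 and 19.3 and Ccl24 at 619.8, 168, 111, 71.2 and 12.8, each with the vehicle gland above the 4 others. Lyve1 was at 147, 0, 30.9, 204 and 54.6 CPM and did not follow that order, since replicate 2 exceeded vehicle. Folr2, the folate receptor, was at 535, 16, 165, 198 and 220.0 CPM, lowest in PK 4NQO. In such sums fewer cells of a state and less RNA per cell cannot be told apart. The resident gate above counts cells with a UMI of its genes, so its share also depends on the RNA per cell.

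Interferon-inducible genes had higher values in BPK 4NQO replicate 2 than in vehicle, without any passing the test. Summed over the 28 detected type I genes the members held 4268, 4686, 3681, 12082 and 4824 CPM, so replicate 1 lay below vehicle and replicate 2 stood alone. The 20 interferon gamma genes summed to 755, 1409.9, 937, 3480.2 and 721 CPM. Of 25 tested type I genes 23 had positive differences, 16 had both replicates above vehicle (64.0%, against 32.4% of all genes), 0 passed and 3 had an unadjusted p under 0.05. All 15 tested interferon gamma genes had positive differences, 11 with both replicates above vehicle (73.3%), 0 passed and 4 had an unadjusted p under 0.05. Cxcl9, a T cell attractant, was at 5.87 in BPK vehicle, 40.1 in PK 4NQO, 97.8 and 285 in the BPK 4NQO replicates and 19.3 in the tumor, in CPM (log2 difference 4.78, unadjusted p = 0.00682, adjusted p = 1), with 19.2% of replicate 2's UMIs in 1 cell. Rsad2 was at 291, 120.2, 201, 3188 and 271 CPM and Ifit2, another antiviral gene, at 23.5, 64.1, 72.1, 831 and 9.64, both with replicate 2 far above replicate 1. For Rsad2 replicate 1 lay below vehicle. Among 17 MHC class I genes 13 had both replicates above vehicle and 0 passed, and H2-K1 was at 911, 2027, 2546, 4644 and 1726 CPM.

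Other named genes of this comparison did not pass either. Saa3, an acute phase protein, was at 0, 16, 33.5, 136 and 319.6 CPM, and 57.8% of replicate 2's UMIs came from 1 cell. The activin subunit Inhba was at 0, 8.01, 15.4, 112 and 101 CPM, Slfn5 at 2.94, 8.01, 7.72, 278 and 19.3, complement C3 at 11.8, 112, 169.9, 746 and 61.0 and the arginine-degrading enzyme Arg1 at 5.87, 64.1, 111, 157 and 156. For each of these 5 genes the vehicle gland was lowest and replicate 2 was well above replicate 1, except for Arg1, where the replicates were close. Barcodes with no C1q UMI held 114 CPM of Saa3 in replicate 1 and 709 of C3 in replicate 2. Dpys, a pyrimidine-degrading enzyme, was at 85.2, 80.1, 10.3, 7.06 and 28.9 CPM and Pxdc1 at 120.4, 32, 23.2, 12.5 and 300.3, both lower in BPK 4NQO than in vehicle. Vegfa, the vascular growth factor, was at 11.8, 112, 97.8, 134 and 109 CPM. Ccl8, a chemokine for monocytes and T cells, was at 679 in BPK vehicle, 1146 in PK 4NQO, 9187 and 2393 in the BPK 4NQO replicates and 1903 in the tumor, in CPM (log2 difference 3.06, unadjusted p = 0.111, adjusted p = 1), highest in replicate 1. The lipid-associated list had a median log2 difference of -0.06 over 15 tested genes with 0 called, and its replicates disagreed: Gpnmb was at 649, 713, 1725, 446 and 91.5 CPM and Spp1 at 1480.5, 2083, 3413, 103 and 1042.

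**Figure D5:**
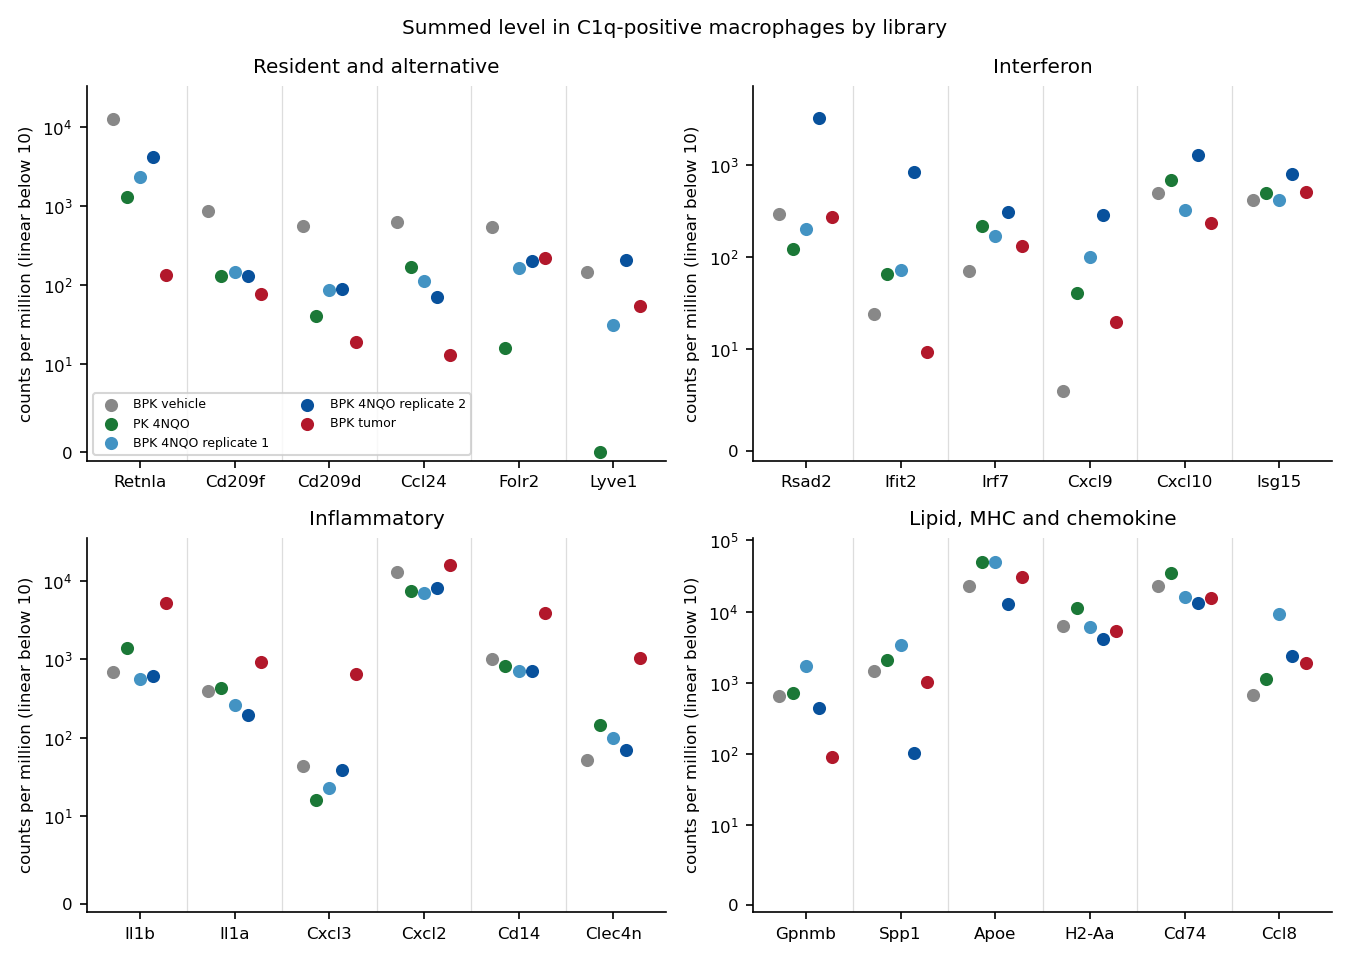
CPM summed over C1q-positive macrophages (y axis, logarithmic above 10 and linear below) for 24 genes in 4 groups, 1 point per library. BPK vehicle is highest for Retnla, Cd209f, Cd209d, Ccl24 and Folr2, BPK 4NQO replicate 2 for Rsad2, Ifit2, Irf7, Cxcl9, Cxcl10 and Isg15, and the tumor for the 6 inflammatory genes.

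Genotype was compared under 4NQO, BPK against PK, in the same model. PK 4NQO was 1 library and the only one counted with Cell Ranger 3.0.2, so genotype and that version cannot be told apart. Of 5341 genes 0 were higher (0%) and 1 was lower (0.0187%) in BPK by edgeR's test, where 82 had an unadjusted p under 0.05, and DESeq2 called 0. The gene was Lepr, the leptin receptor, at 0 in BPK vehicle, 144 in PK 4NQO, 5.15 and 1.63 in the BPK 4NQO replicates and 3.21 in the tumor, in CPM (log2 difference -5.98 ± 1.29 SE, adjusted p = 0.0181). PK 4NQO stood above the 4 BPK libraries, from 18 UMIs, 38.9% of them in 1 cell. Without a filter on low counts its adjusted p was 0.161.

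Macrophages of PK 4NQO had more MHC class II mRNA than those of BPK 4NQO by value, without a call. Both BPK 4NQO libraries lay below PK for 9 of 9 tested class II genes (100%, against 21.6% of all genes), with a median log2 difference of -1.42 and with 0 called and 0 at an unadjusted p under 0.05 in edgeR's test. Cd74 was at 23135 in BPK vehicle, 35063 in PK 4NQO, 15817 and 13255 in the BPK 4NQO replicates and 15512 in the tumor, in CPM (log2 difference -1.48, unadjusted p = 0.345, adjusted p = 1). H2-Aa was at 6318, 11135, 6000, 4110 and 5280.2 CPM, H2-Ab1 at 7335, 13610, 7305, 4649 and 5796 and H2-DMa, of the peptide-loading pair, at 432, 913, 327, 198 and 353. Resident-type genes went the other way, with both BPK 4NQO libraries above PK for 15 of 19 (78.9%, against 41.1% of all genes) and 0 called. All 10 tested proliferation genes lay higher in both BPK 4NQO libraries than in PK, and 0 passed. Mki67 was at 14.7, 16, 33.5, 186 and 45.0 CPM, from 2 UMIs in PK 4NQO.

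Single genes filled into this comparison rested on few counts. Aff1, Dse, Mgea5, Chd3, Rybp and Zcchc24 were at 0 UMIs in PK 4NQO, where 3 UMIs would be 24.0 CPM. Their levels in BPK 4NQO were 28.3 and 109 CPM for Aff1 and 30.9 and 116 for Dse, an enzyme of dermatan sulfate. On the lower side, Apoc4, an apolipoprotein, was at 5.87, 120.2, 51.5, 1.63 and 4.82 CPM, with 80.0% of PK 4NQO's UMIs in 1 cell, and Tmem119, a gene of microglia, at 47.0, 112, 46.3, 4.35 and 96.4. Birc2, an inhibitor of apoptosis, was at 32.3, 112, 30.9, 20.6 and 16.1 CPM and the mitochondrial ribosomal gene Mrps28 at 26.4, 96.1, 36.0, 8.69 and 65.8. Dpys, given above, did not pass either (log2 difference -3.51, unadjusted p = 0.00343, adjusted p = 1).

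In the tumor, compared with BPK 4NQO glands, 13 of 5742 genes were higher (0.226%) and 0 lower (0%) by edgeR's test, where 176 had an unadjusted p under 0.05, and DESeq2 called 6 higher and 2 lower. Krt6a, Krt16, Krtdap, Lypd3 and Dmkn are known from keratinocytes, and Rgs5, Higd1b and Ndufa4l2 from pericytes. Krt6a, a keratin of stressed epidermis, was at 0 in BPK vehicle, 0 in PK 4NQO, 0 and 0.543 in the BPK 4NQO replicates and 206 in the tumor, in CPM (log2 difference 8.56 ± 1.43 SE, adjusted p = 1.24e-05), and barcodes with no C1q UMI held 2789.5 CPM of it in the tumor. Krt16 was at 0, 0, 0, 1.09 and 109 CPM and Dmkn, a secreted epidermal protein, at 2.94, 8.01, 7.72, 5.98 and 138. These UMIs were spread over cells, with at most 8.82% of the tumor's in 1 cell. Rgs5, a pericyte gene, was at 2.94, 8.01, 0, 4.35 and 424 CPM (log2 difference 7.23 ± 1.38 SE, adjusted p = 0.00034), Higd1b at 0, 0, 5.15, 0 and 94.7, Mustn1 at 5.87, 0, 0, 2.72 and 101, Ifitm1 at 0, 8.01, 5.15, 11.4 and 249 and the noncoding Meg3 at 2.94, 0, 2.57, 13.6 and 151. Gm13889 was also called. A single tumor cell held 47.3% of Rgs5, 57.6% of Higd1b, 42.9% of Mustn1, 65.2% of Ifitm1 and 42.6% of Meg3. The keratinocyte and pericyte marker sums moved with these genes, at 2346 and 495 CPM in the tumor's members against 118 to 217 and 12.9 to 101 in BPK 4NQO, but they contain the called genes Krt6a, Krtdap and Rgs5. Without these the sums were 2009 and 70.7 CPM in the tumor against 116 to 216 and 12.9 to 96.2, so the keratinocyte sum stayed above both replicates and the pericyte sum did not. The part of such cells in the result was not tested. With cells thinned to 1000 UMIs 0 of 2296 genes passed. Of the 13 called genes only Krt6a, Rgs5 and Dmkn were tested there, with log2 differences of 6.71, 6.10 and 5.94. The other called genes had too few counts for a test in that run.

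Macrophage genes differed by size rather than by call in the tumor. Il1b was at 696 in BPK vehicle, 1369.9 in PK 4NQO, 566 and 606 in the BPK 4NQO replicates and 5266 in the tumor, in CPM (log2 difference 3.27, unadjusted p = 0.031, adjusted p = 1). Cxcl3, a neutrophil attractant, was at 44.1, 16, 23.2, 39.1 and 654 CPM (log2 difference 4.5, unadjusted p = 0.000536, adjusted p = 0.119) and was called by DESeq2 (log2 difference 4.53, adjusted p = 0.0135). Clec4n, the fungal receptor dectin 2, was at 52.9, 144, 100.4, 69.5 and 1031 CPM (log2 difference 3.68, unadjusted p = 0.00624, adjusted p = 0.631) and Cd14 at 1008, 825, 703, 717 and 3833. In each the tumor exceeded the 4 glands. Of 25 inflammatory genes 14 had the tumor above both BPK 4NQO libraries (56.0%, against 27.1% of all genes), 0 passed and 4 had an unadjusted p under 0.05. The collagenase Mmp13 was at 35.2, 40.1, 7.72, 29.3 and 344 CPM (log2 difference 4.28, unadjusted p = 0.000353, adjusted p = 0.107) and the monocyte attractants Ccl2 and Ccl7 at 543, 280.4, 602, 720.5 and 2552 and 564, 296, 1349, 1035 and 4140. In the list of growth factors, proteases and matrix 16 of 22 genes had the tumor above both replicates (72.7%), 5 at an unadjusted p under 0.05. Barcodes with no C1q UMI in the tumor held 302 CPM of Mmp13 and 167 of Cxcl3.

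Retnla was lowest in the tumor, as given above, and did not pass against BPK 4NQO in edgeR's test (log2 difference -4.44, unadjusted p = 0.0318, adjusted p = 1). DESeq2 called it, with a log2 difference of -4.41 and an adjusted p of 0.00346. Gpnmb was also lowest there, at 91.5 CPM against 446 to 1725 in the glands, while Trem2 was at 676, 745, 1078, 205 and 432 CPM. The phospholipase Pla2g2d, at 141, 96.1, 72.1, 254 and 3.21 CPM, Ccl22, at 123, 80.1, 12.9, 106 and 0, Fgd4, a regulator of Cdc42, at 35.2, 0, 23.2, 77.2 and 0, the class I-like H2-M2, at 5.87, 72.1, 72.1, 58.7 and 1.61, and the lipase Mgll, at 20.6, 32, 56.6, 60.9 and 1.61, were named on the lower side without passing. For Pla2g2d and Ccl22 the tumor lay below the 4 glands. Type I interferon genes lay lower in the tumor than in both BPK 4NQO libraries for 13 of 26 (50%, against 33% of all genes), 0 called and 3 at an unadjusted p under 0.05. Their sum of 4824 CPM in the tumor lay between 3681 in replicate 1 and 12082 in replicate 2. Lysosomal genes lay lower in the tumor than in both replicates for 13 of 20 (65.0%), with 0 called and 0 at an unadjusted p under 0.05.

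Genes of hypoxia and glycolysis lay higher in the tumor than in both replicates for 13 of 16 (81.2%, against 27.1%), 0 called and 1 at an unadjusted p under 0.05. Ldha, lactate dehydrogenase, was at 258, 433, 429.9, 192 and 744 CPM and Aldoa, an aldolase, at 379, 393, 610.0, 329 and 827, with 2039 and 1496 CPM in the tumor's barcodes with no C1q UMI. Immediate early and dissociation genes lay lower for 12 of 18 (66.7%, against 33%), 0 called and 0 at an unadjusted p under 0.05, and Jun was at 1310.1, 1049, 685, 2278 and 268 CPM. The MS4A relatives of Ms4a7 that were tested, Ms4a6b, Ms4a6c, Ms4a6d and Ms4a14, did not pass in any comparison, and Ms4a6d was at 94.0, 200.3, 257, 187 and 524 CPM. Trp53 target genes did not pass either, and Cdkn1a, the cell cycle inhibitor, was at 488, 721, 779.9, 616 and 833 CPM. The same glands of BPK 4NQO served in all 3 comparisons, so their differences are not independent of each other.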

How the data were processed

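The deposited matrices hold UMI counts per gene and barcode, made by the authors with Cell Ranger 5.0.1 (3.0.2 for PK 4NQO) on mm10, per the file headers and the submitters' processing notes. The deposited barcode and gene lists name their columns and rows. Barcodes with at least 300 genes and at most 20% mitochondrial UMIs were kept. Members' raw counts were summed per library and tested with edgeR 4.0.16 (quasi-likelihood F test, filterByExpr, TMM factors, Benjamini-Hochberg adjustment over all genes tested) in R 4.3.3, with the 4 gland libraries in 1 model and all 5 libraries in another, each with 1 residual degree of freedom. Gates were tested by the same method with the library as a block, and standard errors are the log2 difference divided by the square root of F. DESeq2 1.42.0, other filters, C1q and mitochondrial limits, removal of doublets predicted with Scrublet in scanpy 1.11.5 at 0.8% per 1000 barcodes, thinning and leaving out libraries were alternatives. The scripts were tested on simulated data. Doublets were otherwise kept, and counts cover 27998 genes.

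Named genes are the 12 with the largest change per direction past an adjusted p of 0.05, with a mean of at least 32 CPM and both replicates on 1 side, without gate, marker, predicted, mitochondrial and ribosomal protein genes; lists with fewer than 6 were filled by smallest p, and those fills are values, not changes. Other genes belong to the gene and marker lists, were called, or were chosen after their values were seen. The members and all 23 gene lists were chosen with earlier results of these data known. Promoter sequences are RefSeq's. How the counting assigned reads shared by several genes is not given in the sources used here. Some genes that meet this rule are not reported here.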

Additional observations from a re-analysis of the deposited data

How the results depend on the processing

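No named gene of the group comparisons or of the resident and lipid-associated gates changed its direction under any alternative run. The alternative runs reuse cells of the main runs and are not independent of them. Named genes of the Cx3cr1 and cycling gates are not in the counts below. Among all genes called by the resident gate, 84 of the 85 tested kept their sign with at least 15 cells a side and without BPK vehicle. Of 434 values for genes of the group comparisons under alternatives, 402 kept their side of the threshold or their size, 18 lost the threshold, 3 gained it and 11, which have no test, moved; of 336 for gate genes 241 kept it and 95 lost it. For 4NQO against vehicle, genes past the threshold numbered 6 without a filter on low counts, 1 with thinning to 1000 UMIs, 0 without predicted doublets (71 at an unadjusted p under 0.05 in edgeR, 2 in DESeq2 with doublets kept) and 0 in cells free of other cell types' markers. The runs with 0 tested 5126 and 1369 genes, and Acta1, Tnnc2 and Mylpf were not among them. For BPK against PK they numbered 0 with DESeq2, without a filter, with thinning and in cells free of other markers. Lepr was not among the genes tested with thinning or in cells free of other markers. For the tumor they numbered 8 with DESeq2, 27 without a filter, 30 when the model held no library beyond those compared and 0 with thinning. With thinning only Krt6a, Rgs5 and Dmkn of the called genes were tested. Without a BPK 4NQO replicate no residual degree of freedom is left, and log2 differences of called genes ran from -9.60 to -7.45, -6.73 to -4.77 and 3.75 to 10.24 in these comparisons.

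The mean share of BPK 4NQO became 1.65% to 6.65% without a replicate, and replicate 2 fell to 5.92% at a C1q minimum of 20 counts per 10000. Of Ptprc-positive barcodes, members that held a Ptprc UMI made up 29.7%, 25%, 16.8%, 21.9% and 31.7%. The resident gate gave 0 genes at that C1q minimum and 66 to 132 with at least 15 cells a side and a library left out (66 and 74 without BPK 4NQO replicates 1 and 2). The lipid-associated gate gave 0 to 44 genes with a library left out (15 without BPK vehicle, 43 without PK 4NQO, 4 and 0 without BPK 4NQO replicates 1 and 2, 44 without the tumor) and 94 with all UMIs. With all UMIs the Cx3cr1 gate gave 15 genes, and 0 to 66 with a library left out (66 and 2 without BPK 4NQO replicates 1 and 2, 0 without the tumor). At 1000 UMIs the Cx3cr1 and cycling gates, and at either depth the Ccr2 gate, had too few libraries with 20 cells on each side, and leaving out a library from the 2 of the resident or cycling gate was not run. Of 75 gate shares under alternatives 15 moved, and no tumor cell was free of other markers. The cause was not tested for any of these moves. The gate tests paired the sides of each library. No paired analysis between groups was possible because only BPK 4NQO has a second replicate, so no groups share more than 1 replicate number. Simulated log2 changes of 2 were recovered in 20%, 16% and 25.5% of genes of the group comparisons. The simulated spread between libraries was below that of the real data, so these percentages are too high for them.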
